A study of Mus musculus with 8 samples.

Results

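The genes described here are 10 genes of TGF-β and activin signaling, read in NSCs on Affymetrix GeneChip mouse genome arrays. They are the ligand genes Tgfb1, Tgfb2 and Tgfb3, the receptor genes Tgfbr1, Tgfbr2 and Tgfbr3, the matrix protein gene Tgfbi, the activin subunit genes Inhba and Inhbb, and the activin antagonist gene Fst. They were chosen by name, and every probe set (a group of short probes that reads 1 transcript region) whose single annotated symbol is one of these names was taken, which gave 25 probe sets for 10 of the 18193 genes named on the array. RNA came from murine ES-derived NSCs grown in medium with EGF and FGF2, from 4 cultures that were not irradiated (non-irr) and from 4 cultures taken 7 days after 10 Gy of X-rays (irr). The submitters call these biological quadruplicates, so that n = 4 arrays per group throughout. Both groups started from the same kind of cells in the same medium, with no transgene or knockout named in the labels. The number of independent NSC lines behind them and the harvest time of the non-irr cultures are not given in the sources used here. All values are the deposited RMA values on a log2 scale, where a difference of 1 is a 2-fold change. Of the 10 neural stem cell markers written down for a check of the label (Nes, Sox2, Vim, Pax6, Msi1, Fabp7, Sox9, Hes5, Slc1a3 and Olig2), 10 had an intensity over 100 on at least 1 array.

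TGF-β ligands are secreted in a latent form, and once released they bind the type II receptor Tgfbr2, which then recruits and phosphorylates the type I receptor Tgfbr1. Activins are dimers of the inhibin β subunits encoded by Inhba and Inhbb and act through the receptors Acvr2a, Acvr2b and Acvr1b. Both branches meet in phosphorylation of SMAD2 and SMAD3, which enter the nucleus with SMAD4. The pathway is known in the nervous system for slowing the division of neural progenitors and for its part in astrocyte responses to injury, and in other cells for driving matrix synthesis and growth arrest.

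The sequences before the start sites of 3 ligand or target genes that rose are shown because their RNAs moved together, while no motif in them is claimed as a site. RefSeq start sites on GRCm38.p6 were available for 7 of the 10 genes, and Tgfb3, Tgfbr3 and Fst had none in the table used. In the stretches printed, 5′ to 3′ on the gene's strand, capitals mark every match on either strand to CAGAC (the SMAD box), TGANTCA (AP-1), TGACGTCA (the cyclic AMP element), CACGTG (the E-box), GGGCGG (the GC box) or TATAAA (the TATA box). Tgfbi lies on chromosome 13, on the plus strand, and Inhbb on chromosome 1, on the minus strand, and for both the 250 bases that end just before the annotated gene are given. For Tgfb2, on the minus strand of chromosome 1, the window lies inside the span of the annotated gene (chr1:186622787-186709697), whose longest form starts further upstream, and only the 30 bases with an E-box and a TATA box are given.
Tgfb2, chr1:186706015-186706044: caaaCACGTGgtttggggagcacaTATAAA
Tgfbi, chr13:56609336-56609585: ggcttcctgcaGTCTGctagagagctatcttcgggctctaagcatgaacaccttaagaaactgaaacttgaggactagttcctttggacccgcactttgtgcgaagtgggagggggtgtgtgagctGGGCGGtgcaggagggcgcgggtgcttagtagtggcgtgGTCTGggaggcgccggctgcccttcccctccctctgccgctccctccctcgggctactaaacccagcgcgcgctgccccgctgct
Inhbb, chr1:119422249-119422498: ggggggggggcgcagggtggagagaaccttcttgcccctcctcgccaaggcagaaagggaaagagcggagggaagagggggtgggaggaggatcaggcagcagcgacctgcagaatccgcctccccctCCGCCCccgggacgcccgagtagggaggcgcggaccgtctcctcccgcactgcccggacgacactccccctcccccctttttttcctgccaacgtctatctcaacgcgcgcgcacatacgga
The Tgfb2 E-box begins 51 bases and the TATA box 31 bases before the start, and 2 CAGAC matches stand 221 and 204 bases before it. Tgfbi holds 2 such matches, at 239 and 85 bases, and a GC box at 124, and Inhbb holds a GC box at 122 and no CAGAC. Over 32851 windows of this length, 42.2% held CAGAC, 32.7% the GC box, 12.4% the TATA box, 6.75% TGANTCA, 6.02% the E-box and 1.55% the cyclic AMP element, so that CAGAC is a common string. Tgfbr2 (160 bases) and the second start of Tgfbr1 (203 bases), whose RNAs moved little, also held CAGAC, and the first start of Tgfbr1, Tgfb1 and Inhba did not.

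At 7 days after irr, NSCs held more RNA of the co-receptor Tgfbr3, of Tgfbi, of the ligand subunits Tgfb2 and Inhbb and of the antagonist Fst, while the signaling receptors Tgfbr1 and Tgfbr2 and the ligand Tgfb3 differed by 0.17 or less on the log2 scale. Probe sets with an intensity over 100 (log2 6.64) on at least 1 array were tested with limma, and those at an adjusted p under 0.05 over all 21919 such probe sets were called. Of the 25 probe sets, 18 passed this filter, of which 14 were called higher and 1 lower, and 3 were not called. Over the whole array 75.1% of the probe sets tested were called, 38% higher and 37.1% lower. By the fitted difference 10 of the 18 changed at least 2-fold, against 14.4% of all, and 8 did once a group below an intensity of 100 on every array was set to 100, and the groups of arrays did not overlap in 15, against 69.6% of all. Counting each gene once, by its brightest probe set, 6 of the 9 genes tested were called, against 77.3% of 11372 genes. All 6 were higher (40.2% of all genes) and 0 lower (37.1%), and in the same 6 the arrays of the groups did not overlap (73.4%). By the fitted difference 4 were at least 2-fold higher, against 8.9% of all genes (15.1% in either direction), and 3 by that bound, which Fst did not reach, and 0 were at least 2-fold lower, against 6.17%. The 6 probe sets of Tgfbi and Fst passed the filter only through the irr arrays and so had to differ, and these counts are a description. The median log2 fold change was 0.63 over these 9 genes and 0.0069 over all genes. In bulk RNA, more cells that make a transcript and more of it per cell cannot be told apart, and the same holds for a decrease.

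**Figure D1:**
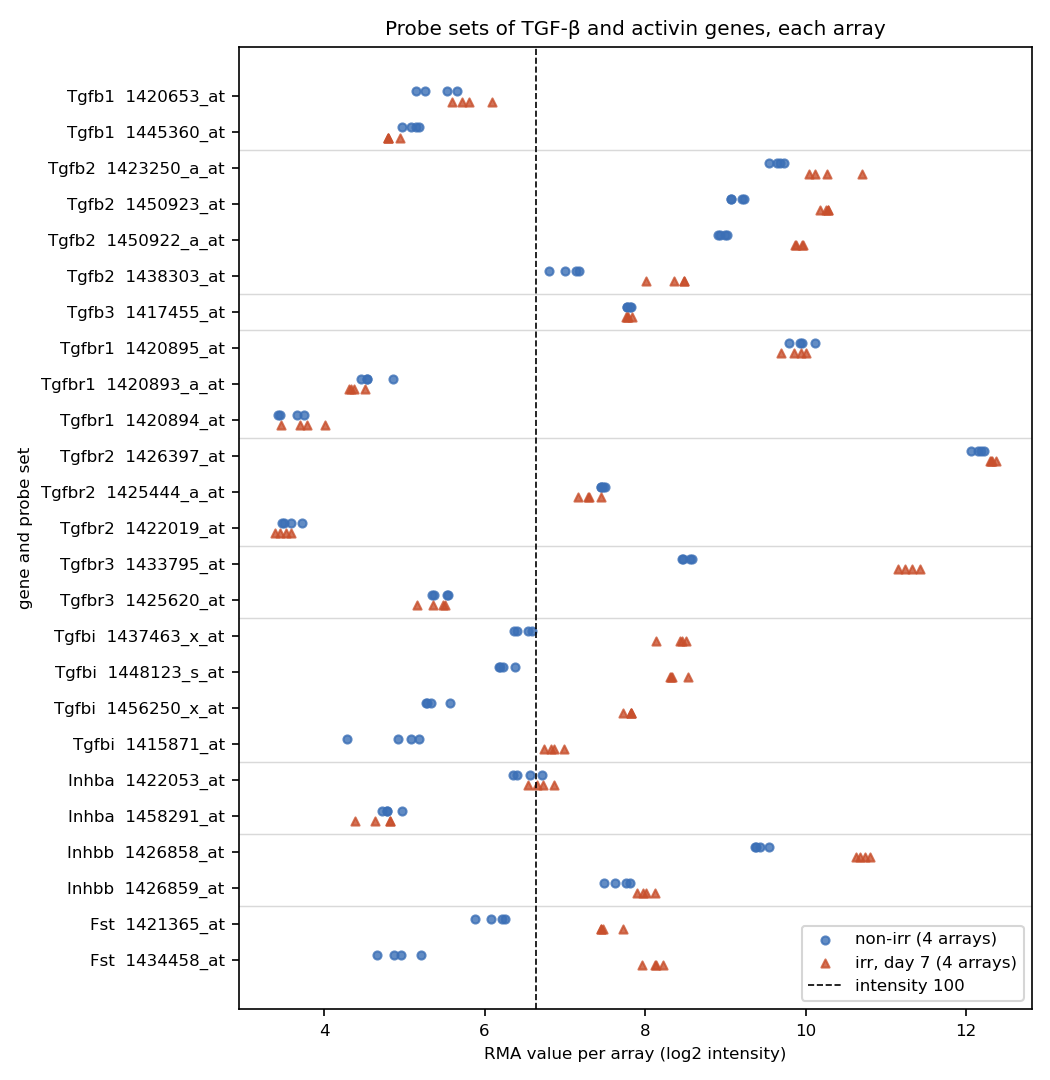
RMA values (log2 intensity, horizontal axis) of the 25 probe sets of the 10 genes (vertical axis) on each of 4 non-irr arrays (blue circles) and 4 irr arrays (red triangles), with the filter intensity of 100 as a dashed line. The groups lie apart for Tgfbr3 1433795_at (8.46 to 8.59 against 11.15 to 11.43) and overlap for Tgfb3 (7.77 to 7.82 against 7.76 to 7.84), and both Tgfb1 probe sets stay left of the line.

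The 8 arrays had a median log2 value of 6.22 to 6.24 and correlated within a group at 0.996 to 0.998. The second principal component (3.68% of the variance, after 92.0% for the first) separated the first 2 irr replicates from replicates 3 and 4, so that results are also given without the last pair where that changes a call. The non-irr arrays shared in this split. Deviations from the group means of non-irr replicate 4 correlated at -0.48 and -0.34 with irr replicates 1 and 2, and at 0.38 and 0.51 with 3 and 4. Those of non-irr replicate 2 gave 0.35 and 0.38, then -0.45 and -0.31. For non-irr replicates 1 and 3 the correlations were weaker, from -0.29 to 0.26. The 3′ minus 5′ difference of the array's control probe sets, a sign of RNA integrity, was wider in irr NSCs for actin (0.26 ± 0.03 in non-irr and 0.51 ± 0.07 in irr, log2, SD, n = 4) and for the transferrin receptor (0.35 ± 0.21 and 0.85 ± 0.24), and that of Gapdh was -0.08 ± 0.04 and -0.06 ± 0.03. Its part in the differences between probe sets of a gene, described below, was not tested.

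Among the TGF-β ligands, Tgfb2 rose by all 4 of its probe sets. Probe set 1450923_at read 9.07, 9.21, 9.23 and 9.08 on the non-irr arrays and 10.28, 10.28, 10.17 and 10.26 on the irr arrays. All irr arrays lay above all non-irr arrays, and the log2 fold change was 1.10 (standard error 0.05, a 2.14-fold increase, adjusted p = 5.3e-08 from limma). The brightest probe set, 1423250_a_at, rose less (log2 0.63 by limma, adjusted p = 0.0012, standard error 0.13), with 9.64, 9.73, 9.68 and 9.54 in non-irr and 10.70, 10.26, 10.12 and 10.04 in irr NSCs. Its irr arrays were spread more widely than those of the other probe sets, with irr replicate 1 the highest. The remaining probe sets, 1450922_a_at and 1438303_at, rose by 0.95 (standard error 0.05) and 1.31 (standard error 0.12), again with no overlap between the groups.

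Tgfb3, the third isoform, was read by 1 probe set and did not pass the test. It read 7.77, 7.77, 7.81 and 7.82 in non-irr and 7.76, 7.79, 7.84 and 7.77 in irr NSCs. These groups overlap, and the difference of -0.0010 had a 95% confidence interval from -0.09 to 0.09 (adjusted p = 0.98 from limma), so that the upper end of the interval lay below the smallest change of Tgfb2, 0.63. Tgfb1, the isoform best known from platelets and immune cells, stayed below an intensity of 100 on all 8 arrays by both probe sets and was not tested. Probe set 1420653_at read 5.40 ± 0.23 in non-irr and 5.81 ± 0.21 in irr NSCs (SD, n = 4), and 1445360_at read 5.09 ± 0.09 and 4.84 ± 0.08, so that they moved in opposite directions. With no intensity filter both differences were past the threshold, at adjusted p = 0.024 and adjusted p = 0.0074 from limma, and at this brightness the arrays give no settled direction for Tgfb1.

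**Figure D2:**
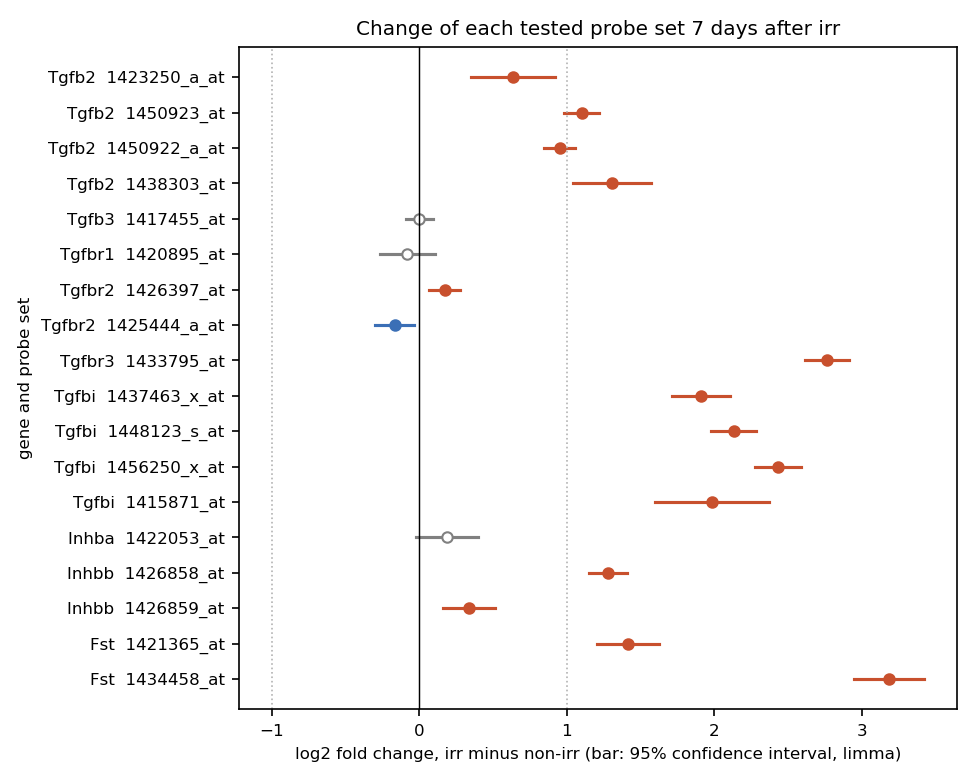
Log2 fold change (irr minus non-irr, horizontal axis) of the 18 probe sets past the filter, with 95% confidence intervals from limma as bars. Red points are higher, the blue point is lower and open points did not pass the test, and dotted lines mark a 2-fold change. The 4 probe sets of Tgfbi range from 1.91 to 2.43, and the pair of Tgfbr2 stands on either side of 0, at 0.17 and -0.17.

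Of the activin subunits, Inhbb rose and Inhba did not pass the test. Inhbb encodes the subunit of activin B, and its probe set 1426858_at read 9.43, 9.38, 9.37 and 9.55 in non-irr and 10.80, 10.67, 10.63 and 10.74 in irr NSCs, which is 2.43-fold more with no overlap (log2 1.28, standard error 0.06, adjusted p = 3.6e-08 from limma). Its other probe set, 1426859_at, gained 0.33 (limma, adjusted p = 0.0033, standard error 0.08), from 7.67 ± 0.14 to 8.01 ± 0.09 (SD, n = 4), so that the direction but not the size was shared. Inhba, the subunit of activin A, stood at the filter, with 6.35, 6.57, 6.40 and 6.72 in non-irr and 6.66, 6.86, 6.73 and 6.54 in irr NSCs. These groups overlap, and the difference was 0.19 (95% confidence interval -0.02 to 0.40, adjusted p = 0.093 from limma). It passed the test as higher once arrays were centred on the reference genes (0.28, adjusted p = 0.019 from limma), without non-irr replicate 4 (0.26, adjusted p = 0.024 from limma) and without irr replicate 4 (0.24, adjusted p = 0.048 from limma). Its second probe set, 1458291_at, read 4.82 ± 0.11 and 4.67 ± 0.20, below the filter.

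Fst, whose product follistatin binds activins and keeps them from their receptors, was below an intensity of 100 on every non-irr array and above it on every irr array. Probe set 1434458_at read 4.87, 5.21, 4.95 and 4.67 in non-irr and 7.96, 8.22, 8.12 and 8.14 in irr NSCs. That is an increase of at least 2.76-fold, taking the intensity of 100 in place of the non-irr level. The fitted difference of 3.19 (standard error 0.11) is of uncertain size, since it rests on a non-irr level that is not above the filter. The second probe set, 1421365_at, read 6.22, 6.25, 5.89 and 6.07 in non-irr and 7.72, 7.47, 7.45 and 7.45 in irr NSCs, at least 1.84-fold higher (fitted difference 1.41, standard error 0.09). Both rose on all irr arrays, by sizes that differ between the probe sets. Because both passed the filter only through the irr arrays and so had to differ, no p value is given for them.

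Of the receptors, Tgfbr3 rose strongly and the signaling receptors hardly moved. Tgfbr3 encodes betaglycan, a co-receptor that presents TGF-β2 to the type II receptor and also binds inhibin. Its probe set 1433795_at read 8.56, 8.48, 8.46 and 8.59 in non-irr and 11.33, 11.15, 11.24 and 11.43 in irr NSCs, 6.79 times the level (log2 2.76, standard error 0.07, adjusted p = 7.2e-10 from limma), a change larger in size than the change of 99.4% of the probe sets tested. The groups were far apart, with the lowest irr array above the highest non-irr array. The other probe set, 1425620_at, read 5.45 ± 0.10 and 5.38 ± 0.16 (SD, n = 4), below the filter on all 8 arrays.

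Tgfbr1, the type I receptor kinase, had overlapping groups by its only probe set past the filter (1420895_at), with 9.80, 9.96, 10.12 and 9.93 in non-irr and 9.94, 10.00, 9.69 and 9.86 in irr NSCs. The difference was -0.08 (95% confidence interval -0.27 to 0.11, adjusted p = 0.40 from limma), and its other 2 probe sets stayed below the filter. Tgfbr2, the type II receptor that binds the ligand, gave opposite answers. Probe set 1426397_at read 12.19, 12.15, 12.07 and 12.22 in non-irr and 12.29, 12.31, 12.33 and 12.37 in irr NSCs (0.17, standard error 0.05, adjusted p = 0.0084 from limma). Probe set 1425444_a_at read 7.50, 7.47, 7.45 and 7.45 in non-irr and 7.17, 7.29, 7.30 and 7.45 in irr NSCs, with irr replicate 4 just under the lowest non-irr array (-0.17, standard error 0.06, adjusted p = 0.026 from limma). Their mean moved by 0.0012 (adjusted p = 0.98 from limma). The first call ended without irr replicates 3 and 4 (0.15, adjusted p = 0.063 from limma), and the second without any one of non-irr replicates 1 and 2 and irr replicates 1 and 2 (-0.17 to -0.12, adjusted p = 0.053 to adjusted p = 0.064 from limma) and with arrays centred on reference genes (-0.07, adjusted p = 0.24 from limma).

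Tgfbi encodes a secreted matrix protein that was first found as a TGF-β-induced gene, and it rose by all 4 probe sets. Probe set 1448123_s_at read 6.19, 6.23, 6.18 and 6.38 in non-irr and 8.31, 8.32, 8.33 and 8.54 in irr NSCs, or at least 3.32-fold more (fitted difference 2.13, standard error 0.07). The others had fitted differences of 1.91 (1437463_x_at), 2.43 (1456250_x_at) and 1.98 (1415871_at), with standard errors of 0.09, 0.07 and 0.17. All 4 lay below an intensity of 100 on every non-irr array and above it on every irr array, so that only the bounds, from 1.16-fold to 3.35-fold, are firm as sizes. These probe sets passed the filter only through the irr arrays and so had to differ, and no p value is given for them.

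Whether genes with related products changed by different amounts was asked within each array, by the difference of the log2 values of a pair (brightest probe sets). The level of one probe set cannot be set against that of another, and the size of a change also depends on the probe set. As the 2 probe sets of Inhbb rose by 1.28 and 0.33, the results hold for the probe sets used. Of 6 such pairs planned, the pairs with Tgfb1 could not be used, and 4 were tested with an exact permutation test over the 8 arrays (two-sided), for which 0.029 is the smallest p. From non-irr to irr, Tgfb2 gained on Tgfb3 by 0.63 (difference 1.86 ± 0.10 in non-irr and 2.49 ± 0.31 in irr, SD, n = 4, exact permutation p = 0.029, adjusted p = 0.038 over the 4 pairs). Inhba lost 1.09 against Inhbb (-2.92 ± 0.12 and -4.01 ± 0.19, with the same exact p), with no overlap between the groups, although only 1 non-irr and 3 irr arrays read Inhba above the filter. Tgfbr1 and Tgfbr2 did not separate in this test, at a change of -0.25 (-2.20 ± 0.19 and -2.45 ± 0.15, SD, n = 4, exact permutation p = 0.11, adjusted p = 0.11). The difference of Inhba and Fst was 0.40 ± 0.23 in non-irr and -0.83 ± 0.20 in irr NSCs. This change of -1.23 is given as a description, since Fst passed the filter only through the irr arrays and so had to differ. The pair was still among the 4 over which p was adjusted. Its inclusion lowered the adjusted p of Tgfb2 with Tgfb3 and of Inhba with Inhbb.

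**Figure D3:**
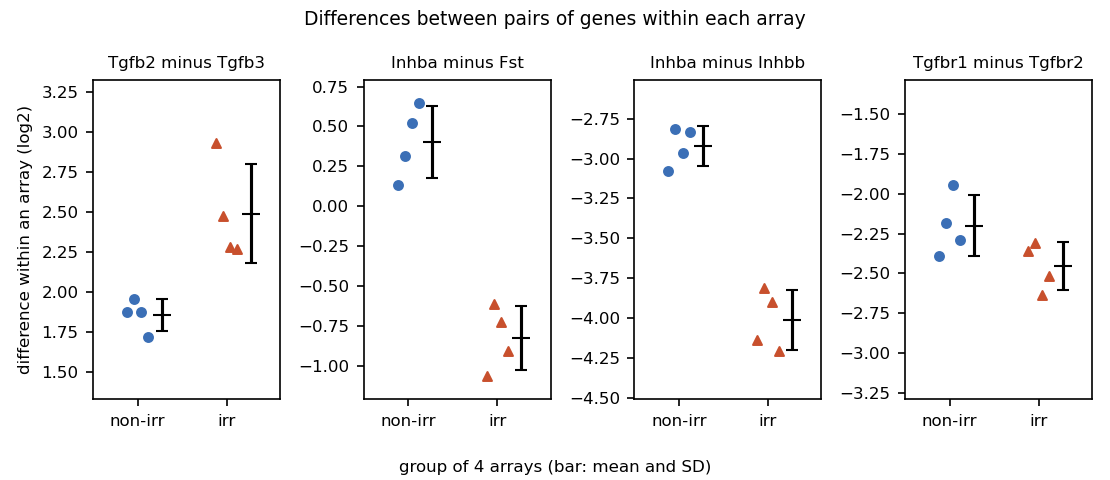
Difference of the log2 values of 4 pairs of genes, each by its brightest probe set, within each array (vertical axis, log2, each panel spanning the same range around its own middle), for 4 non-irr (blue circles) and 4 irr arrays (red triangles), with mean and SD beside them. The groups do not overlap for Tgfb2 minus Tgfb3, Inhba minus Fst and Inhba minus Inhbb, whose means changed by 0.63, -1.23 and -1.09, the second with Fst below the filter on every non-irr array. The third was read with the Inhbb probe set that rose more.

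The partners of these genes were described by lists that also hold the rest of the pathway, each gene by its brightest probe set. Of 6 receptors and co-receptors of the activin branch past the filter, 4 rose, Acvr2b fell and the co-receptor Eng did not pass the test. Their median was 0.47, against 0.0069 over all genes, of which 40.2% were higher and 37.1% lower. No change was 2-fold or more, against 15.1% of all genes. The type I activin receptor Acvr1b rose by 0.48 (standard error 0.06), the type II receptor Acvr2a by 0.77 (standard error 0.08) and Acvr1, a type I receptor that BMPs also use, by 0.94 (standard error 0.05), with no overlap between the groups in any of these. Tgfbrap1, which binds the receptors inside the cell, rose by 0.47 (standard error 0.06). The other type II receptor, Acvr2b, decreased by 0.19 (limma, adjusted p = 0.0080, standard error 0.05), and this call ended with arrays centred on reference genes (-0.09, adjusted p = 0.13 from limma). Among other ligands and inhibitors, only 4 of 12 genes found on the array passed the filter. The follistatin-like gene Fstl1 rose by 0.81 (standard error 0.04) and Bambi, a decoy receptor without kinase, fell by 0.45 (standard error 0.05), while Fstl3, which also binds activins, had -0.12 (adjusted p = 0.23 from limma) and the ligand Gdf11 had 0.04 (adjusted p = 0.65 from limma). Inha, whose product pairs with the β subunits to form inhibin, read 5.73 ± 0.07 in non-irr and 6.31 ± 0.06 in irr NSCs (SD, n = 4), below the filter on all arrays.

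Of 19 SMADs and regulators past the filter, 8 rose, 5 fell and 6 were not called (median 0.03), where 40.2% of all genes were higher and 37.1% lower. Smad3 read 9.10, 9.15, 9.10 and 9.08 in non-irr and 10.02, 10.05, 10.12 and 10.13 in irr NSCs, a gain of 0.97 (limma, adjusted p = 3.7e-08, standard error 0.04) by the only one of its 3 probe sets past the filter. Its fellow receptor SMAD gene Smad2 had 0.02 (adjusted p = 0.72 from limma) by its brightest probe set. Smad2 was called higher by the mean of both probe sets (0.19, adjusted p = 0.0051 from limma) and with arrays centred on reference genes (0.11, adjusted p = 0.029 from limma). Smad4, their shared partner, had -0.09 (adjusted p = 0.072 from limma), and the inhibitory Smad7, itself a rapid target of the pathway, had 0.03 (adjusted p = 0.62 from limma). Of the repressors that bind SMADs, Ski rose by 0.67 (standard error 0.04) and Skil fell by 0.82 (standard error 0.06). The coactivator genes Ep300 and Crebbp rose by 0.60 and 0.54, and Pmepa1, a membrane protein that holds receptor SMADs back, fell by 1.52 (standard error 0.08), from 8.65, 8.65, 8.62 and 8.62 to 6.97, 6.96, 7.19 and 7.34.

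Genes that store TGF-β in the matrix or release it were mostly higher. Of 14 genes of latency and activation past the filter, 11 rose, against 40.2% of all genes, and 2 fell, against 37.1%. The remaining 1 was not called (median 0.74). Of the 11, 5 rose at least 2-fold by the fitted difference, against 8.9% of all genes, and 4 by the bound. Of the 2 that fell, 1 did so at least 2-fold, against 6.17% of all genes. Mmp2, a gelatinase that can release latent TGF-β, read 7.73, 7.70, 7.54 and 7.78 in non-irr and 11.62, 11.65, 11.72 and 11.77 in irr NSCs, 16.0 times the level (limma, adjusted p = 1.5e-10). The secreted protease Adamts1 rose by 1.88 (standard error 0.06), the integrin subunit Itgb5 by 1.84 (standard error 0.06) and the latent TGF-β binding protein Ltbp3 by 1.19 (standard error 0.06). Nrros, which tethers latent TGF-β1 on microglia and macrophages, was below an intensity of 100 on all non-irr arrays and was at least 1.68-fold higher. It passed the filter only through the irr arrays and so had to differ. The microfibril gene Fbn2 fell by 1.32 (standard error 0.07). Thbs1 and Ltbp1, known as an activator and a store of latent TGF-β, stayed below the filter. Of 5 matrix proteins that bind TGF-β, Lum (at least 2.98-fold) and Dcn (at least 1.06-fold) were higher, Nid1 was lower (-0.16, with overlapping groups, a call that ended with no intensity filter, with the replicate block, with arrays centred on reference genes, and without any one of non-irr replicates 1 and 4 and irr replicates 1 and 4) and Bgn and Vasn did not pass the test. Lum and Dcn passed the filter only through the irr arrays and so had to differ.

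**Figure D4:**
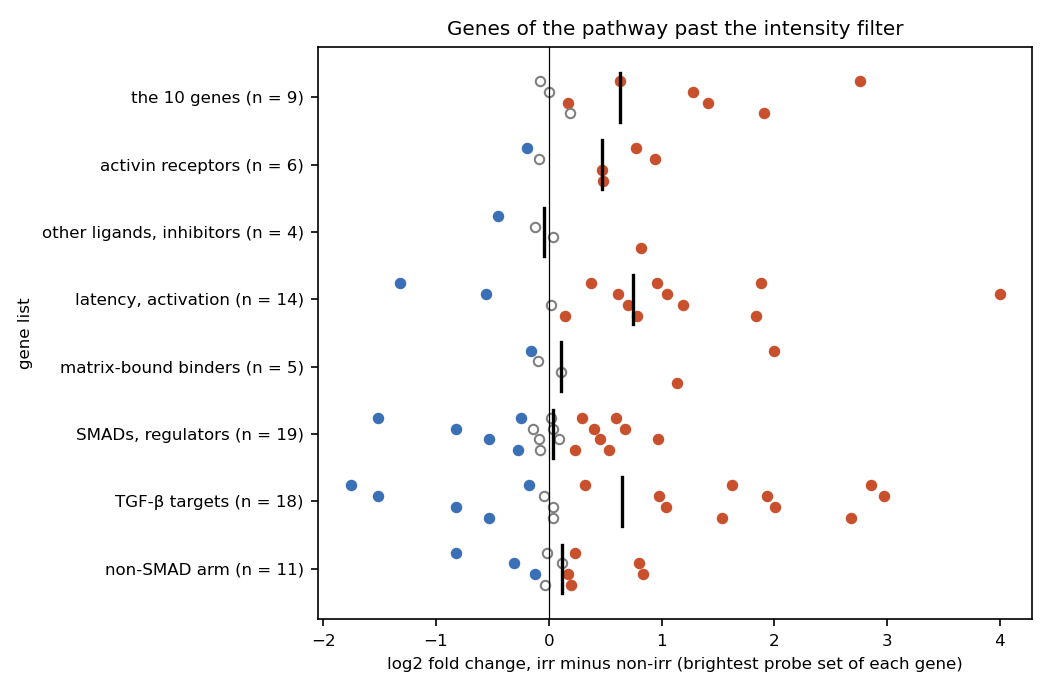
Log2 fold change (irr minus non-irr, horizontal axis) of each gene past the intensity filter in 8 lists (vertical axis, with the number of genes), by its brightest probe set. Red points are higher, blue points lower and open points did not pass the test, height within a row has no meaning, and the black bar is the median, from -0.04 for other ligands and inhibitors to 0.74 for latency and activation.

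The target genes moved in both directions. Of 18 TGF-β target genes past the filter, 10 rose, 5 fell, 2 of them at least 2-fold, and 3 were not called (median 0.65), against 40.2% of all genes higher and 37.1% lower. Of the 10, 8 rose at least 2-fold by the fitted difference and 6 by the bound, which Snai2 and Postn did not reach. Over all genes, 8.9% were at least 2-fold higher and 6.17% at least 2-fold lower by the fitted difference. Snai2, Postn and Sphk1 passed the filter only through the irr arrays and so had to differ, and these counts are a description. The matricellular genes Ccn2 and Ccn1 were 7.26-fold and 4.01-fold higher and fibronectin (Fn1) 3.83-fold, and Snai2, a transcription factor of mesenchymal transition, was at least 1.72-fold higher. Cdkn1a, which encodes the CDK inhibitor p21 and is also a target of p53, was 7.85-fold higher. Acta2, the smooth muscle actin of myofibroblasts, fell by 1.75 (standard error 0.06), from 9.31 ± 0.05 to 7.56 ± 0.12 (SD, n = 4). The rapid targets Pmepa1, Skil and Tgif1, which restrain the pathway, were lower (-1.52, -0.82 and -0.53), while of other rapid targets Junb, a subunit of AP-1, rose by 1.04 (standard error 0.09) and Smad7 was not called. The collagen genes Col1a1 and Col1a2 stayed below the filter on all arrays. Many of these genes have other inducers, and the list was written with earlier results of these arrays known.

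Markers of mesenchymal cells and astrocytes moved with these groups, in a table where 40.2% of all genes were higher and 37.1% lower. Of 10 mesenchymal genes (Col1a1, Col1a2, Col3a1, Pdgfrb, Lum, Dcn, Postn, Twist1, Prrx1 and Thy1), 7 passed the filter and 6 were higher, and their summed intensity was 2777 to 2912 on non-irr and 7051 to 7533 on irr arrays, while Col1a1, Col1a2 and Pdgfrb lay below the filter in both groups. Col3a1, Lum, Dcn and Postn also stand in the lists of targets or binders. Lum, Dcn and Postn, and in the lists below the astrocyte gene Aqp4 and the neuronal gene Syt1, passed the filter only through the irr arrays. They so had to differ, and the counts that hold them are a description. Of 8 astrocyte genes, 6 rose, among them Aqp4 (at least 26.1-fold) and Apoe (25.0-fold). Aldoc and Gfap fell (-0.73 and -0.18, Gfap with overlapping groups and above the filter on 3 non-irr arrays and 1 irr array). The 8 genes had a summed intensity of 17925 to 18937 on non-irr and 34062 to 37026 on irr arrays. Bright genes weigh most in such a sum, and Apoe went from a mean log2 value of 9.29 to 13.94. Of 6 endothelial genes 1 passed the filter and of 7 microglial genes 2 did, with summed intensities of 255 to 293 and 253 to 268 for endothelial and 452 to 497 and 502 to 559 for microglial genes, and Aif1, Cx3cr1, Itgam, Ptprc and Trem2 stayed below it. Of the microglial genes that passed, P2ry12 rose by 0.52 (standard error 0.08) with no overlap between the groups and Csf1r was not called (-0.05), and of the endothelial genes Kdr fell by 0.40 (standard error 0.10). Of 6 pluripotency genes only Esrrb passed the filter, and of 5 oligodendrocyte genes on the array Mbp and Sox10, and none of these 3 was called. Of 5 neuronal genes past the filter 1 rose and 3 fell, of the 10 neural stem cell genes 4 rose and 3 fell, and of 9 reference genes 2 rose and 4 fell. The part of mesenchymal and astrocytic gene expression in the changes of Tgfbr3, Tgfbi, Fst and the target genes was not tested.

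The genes whose values followed those of Tgfbr3 most closely over the 8 arrays were Ndrg3, Lmbrd1 and Cd36 (Pearson's r = 0.9995, 0.9995 and 0.9994), for Tgfbi they were Hhip, Zfp438 and Wdr13 (r = 0.998 each) and for Fst Atp6ap2, Slc33a1 and Eps8 (r = 0.998, 0.998 and 0.997). As the 8 arrays fall into 2 separate groups, such a correlation mostly reads the difference between them, and 2073 to 2744 genes had an r above 0.95 with one of these 3 genes, so that these names describe likeness in shape only.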

How the data were processed

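Total RNA of 4 non-irr and 4 irr NSC cultures was hybridized to Affymetrix arrays. The authors obtained intensities and present calls in GCOS, normalized them by RMA, and the deposited values are log2 RMA values of 45101 probe sets, 64 of them controls. The methods' filter had not been applied to them, and detection calls were not used here. RMA equalizes the distribution of all arrays, so that changes are relative to the other genes. The number of arrays limits the precision.

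Probe sets were named from the platform annotation (34958 with 1 symbol, 34754 of these updated through the gene number with the GRCm38.p6 table, 932 with several and 9211 with none, the last 2 groups left out). Those brighter than 100 on 1 or more arrays were tested with limma 3.58.1 in R 4.3.3. The test was two-sided, with Benjamini-Hochberg adjustment over all 21919 and calls at an adjusted p under 0.05. The procedure was tried on simulated data with independent noise and few changed probe sets, unlike these data, where 75.1% were called. The probe set of highest mean stands for its gene. For folds written "at least", a group below an intensity of 100 on every array was set to it. The 10 genes, the 7 pathway lists and the marker lists were chosen with earlier results of these data known. Named are all 10 genes, their direct partners, and in each list up to 6 called genes with the largest change and no overlap between the groups, and a few others (Gdf11, Nid1, Bgn, Vasn, Tgif1, Junb, P2ry12, Thbs1, Ltbp1, Col1a1, Col1a2 and further listed genes) chosen after their values were seen. Alternatives were other intensity filters, centring on array medians or reference genes, trend and robust settings, a replicate block, leaving out arrays, and the mean of a gene's probe sets.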

Additional observations from a re-analysis of the deposited data

Results flagged for a closer look

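In 124 groups of 4 arrays (the 25 probe sets and the other genes named), 5 held an array that stood far from the other 3 by Dixon's test, and chance flags about 1 in 20. Irr replicate 4 was highest for Tgfb1 1445360_at (4.95, the others 4.79 to 4.80), below the filter, and for Tgfbi 1448123_s_at (8.54, the others 8.31 to 8.33). Irr replicate 1 was lowest for Tgfbi 1456250_x_at (7.72, the others 7.82 to 7.83) and highest for Fst 1421365_at (7.72, the others 7.45 to 7.47). Non-irr replicate 1 was highest for Ccn2 (7.62, the others 7.44). For Tgfbi, Fst and Ccn2 the groups stayed apart with these arrays included.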

How the results depend on the processing

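Of 1346 values recomputed under the alternatives for 87 results, 1305 kept their side of the threshold or stayed within 1.5 times of the count, 15 lost a call, 9 gained one, 17 counts moved by more and none reversed. The counts that moved were those of small lists. With no intensity filter, other ligands and inhibitors had 2 higher and 3 lower, and matrix-bound binders 0 lower. With an intensity over 100 on at least 4 arrays, matrix-bound binders had 1 higher. With arrays centred on reference genes, 0 of the 18 probe sets, 0 activin receptors and 0 matrix-bound binders were lower. With the mean of all probe sets, 3 genes of the non-SMAD arm were higher. Leaving out 1 array gave 0 to 1 lower among the 18 probe sets (0 without non-irr replicates 1 or 2 or irr replicates 1 or 2) and 0 to 1 lower among the matrix-bound binders. The same replicate numbers gave correlations of deviations from the group means of 0.04, 0.38, -0.21 and 0.51, and different numbers gave -0.48 to 0.38. The labels do not say that arrays of the same number belong together, and the main fit used no pairing. With the replicate block 16550 in place of 16467 probe sets were called, matrix-bound binders had 0 lower, and 6 SMADs and regulators were lower and 6 genes of the non-SMAD arm higher, in place of 5 each. Without both irr replicates 3 and 4 the pair differences were -1.24 for Inhba minus Fst, and 0.85 for Tgfb2 minus Tgfb3 and -1.05 for Inhba minus Inhbb, the last 2 at adjusted p = 0.089 from the exact permutation test, which with 4 against 2 arrays cannot pass the threshold. Signals below an intensity of 100 limit what is said of Tgfb1, Inhba and the non-irr levels of Fst and Tgfbi.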

Other observations

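The arm of the pathway that does not use SMADs moved little and in both directions. Of 11 genes past the filter, 5 rose, 3 fell and 3 were not called, and no change reached 2-fold, against 15.1% of all genes. The median log2 fold change was 0.12 against 0.0069 over all genes, and 40.2% and 37.1% of all genes tested were higher and lower. Rock1, a kinase of contractile actin bundles, rose by 0.83 (standard error 0.14), with 9.41, 9.96, 9.88 and 9.54 in non-irr and 10.62, 10.78, 10.28 and 10.44 in irr NSCs, and the adaptor Shc1 rose by 0.80 (standard error 0.07). Limk1, a kinase of the actin regulator cofilin, fell by 0.82 (standard error 0.07) and the polarity gene Pard6a by 0.31 (standard error 0.06). The adaptor genes Traf6 and Tab2, which join the receptors to the kinase TAK1, rose by 0.20 and 0.17. The calls of Rock1 and Tab2 ended with the mean of all their probe sets (0.39, adjusted p = 0.072, and 0.10, adjusted p = 0.22, from limma).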
